A study of Mus musculus with 4 samples.

Results

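The Hoxa and Hoxd clusters are 2 of the Hox gene clusters of the mouse and hold the genes that pattern the reproductive tract, among them Hoxa9, Hoxa10, Hoxa11 and Hoxa13 and their Hoxd counterparts Hoxd9, Hoxd10, Hoxd11 and Hoxd13. All intervals of 4 lists of chromatin immunoprecipitation and sequencing (ChIP-seq) that overlapped chromosome 6, 52090000 to 52230000 (the Hoxa window) or chromosome 2, 74490000 to 74620000 (the Hoxd window) were taken, which gave 17 of 35977 intervals, 8 in the Hoxa and 9 in the Hoxd window. The windows were set in positions of the mouse build mm9. The lists name no build, and their positions were used as they stand.

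The lists came from whole uterus of female mice, with 1 library for each group. The groups were FOXA2 at postnatal day 12 (PD12), FOXA2 in the adult on days 2.5 and 3.5 of pseudopregnancy, and, at the same stages, RNA polymerase II phosphorylated on serine 2 (POL2). The sources used here give no strain or genotype and do not say how the days of pseudopregnancy were combined. Pseudopregnancy is the hormonal state after a sterile mating, and FOXA2 is a forkhead transcription factor of the uterine glands. The serine 2 form of the polymerase is found on the bodies of genes that are being transcribed. Whole uterus mixes epithelium, stroma and muscle, so fewer cells with a signal and less signal per cell cannot be told apart.

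The 4 lists held 814 FOXA2 intervals at PD12 and 10373 in the adult, and 9972 POL2 domains at PD12 and 14818 in the adult. They carry no height, score or read count, and read depth is unknown. An interval missing from a list is therefore an interval that was not called, and with 1 library per group a difference between stages could be neither tested nor checked in a replicate. Where an interval is said to be shared or gained, the words describe the lists alone.

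Hox genes encode homeodomain transcription factors that give segments of the body axis their identity. Within a cluster the genes stand in a row and are numbered along it, and the high-numbered (posterior) genes are active in the hind part of the body, which includes the Müllerian ducts. In the mouse, Hoxa9 marks the oviduct, Hoxa10 and Hoxa11 the uterus and Hoxa13 the cervix and vagina, and Hoxa10 and Hoxa11 are needed for implantation and for the response of the uterine stroma to it.

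In the RefSeq gene table for GRCm38, which was used for the order of genes and not for positions, the Hoxa genes run towards Hoxa13 at the upper end of the cluster, and Hoxa9, Hoxa10, Hoxa11 and Hoxa13 are the last of them. The 9 Hoxd genes run the other way, from Hoxd13 at the lower end through Hoxd12, Hoxd11, Hoxd10, Hoxd9, Hoxd8, Hoxd3 and Hoxd4 to Hoxd1, when ordered by the lower end of each gene. The upper end of the Hoxa window is called its Hoxa13 side here, and the lower end of the Hoxd window its Hoxd13 side. No annotation of the lists' own build was used, so that no interval is tied to a single gene, exon, intron or promoter, and the labelled tissue was not checked against marker genes.

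The RefSeq promoter table covers 250 bases before to 50 bases after each transcript start, on GRCm38.p6, and all 8 posterior genes were in it, with 10 starts. The 150 bases just before the start are shown for the first and the last of the posterior genes in each cluster, to let a reader compare both paralogue pairs at the ends of the row. They are written 5′ to 3′ on the gene's own strand, with every CpG dinucleotide in capitals. Their GRCm38.p6 positions are chr6:52227371-52227520 (minus strand) for Hoxa9, chr6:52260881-52261030 (minus strand) for Hoxa13, chr2:74697613-74697762 (plus strand) for Hoxd9 and chr2:74668075-74668224 (plus strand) for Hoxd13, and these cannot be set against the positions of the intervals.
Hoxa9: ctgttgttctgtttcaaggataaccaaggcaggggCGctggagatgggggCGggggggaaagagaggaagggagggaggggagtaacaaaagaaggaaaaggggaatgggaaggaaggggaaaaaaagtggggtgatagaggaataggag
Hoxa13: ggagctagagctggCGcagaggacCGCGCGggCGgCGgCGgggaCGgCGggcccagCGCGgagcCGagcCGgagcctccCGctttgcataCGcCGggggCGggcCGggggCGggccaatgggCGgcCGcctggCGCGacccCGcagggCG
Hoxd9: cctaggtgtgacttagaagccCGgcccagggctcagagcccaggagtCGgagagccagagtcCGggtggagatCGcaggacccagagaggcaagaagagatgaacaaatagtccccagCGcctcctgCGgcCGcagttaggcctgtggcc
Hoxd13: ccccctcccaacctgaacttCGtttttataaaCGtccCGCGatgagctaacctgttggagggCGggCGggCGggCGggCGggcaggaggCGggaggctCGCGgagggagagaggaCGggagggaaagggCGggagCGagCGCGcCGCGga

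These stretches held 2 CpG dinucleotides for Hoxa9 and 25 for Hoxa13, and 7 for Hoxd9 and 19 for Hoxd13. Group 13 was denser in CpG than group 9 in both clusters. In the full 300 bases the counts were 4 for Hoxa9, 12 and 21 for the 2 starts of Hoxa10, 15 for Hoxa11 and 45 for Hoxa13. In the Hoxd cluster they were 20 for Hoxd9, 22 for Hoxd10, 4 and 25 for the 2 starts of Hoxd11 and 37 for Hoxd13. The median over the 10 starts was 20.5, and over all 32851 promoters of the table it was 7, with quartiles of 3 and 20. Over the 10 starts of the other Hoxa and Hoxd genes in the table it was 16.5, with counts from 4 to 29. Only 1.93% of all promoters held as many CpG dinucleotides as that of Hoxa13, and 5.58% as many as that of Hoxd13. At the low end stood Hoxa9 and the first start of Hoxd11, with 4 each, a count that 68.6% of promoters reached.

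**Figure D1:**
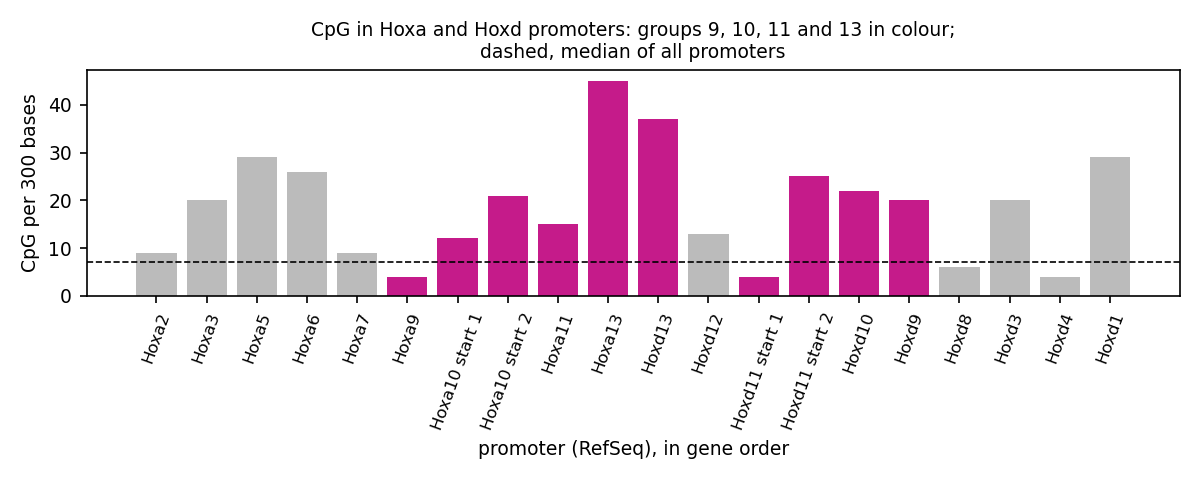
CpG dinucleotides per 300-base RefSeq promoter (vertical axis) for the 20 Hoxa and Hoxd starts in the table, in gene order along each cluster, with groups 9, 10, 11 and 13 in colour and the median of all promoters (7) as a dashed line. Hoxa13 (45) and Hoxd13 (37) stand highest, and Hoxa9 and the first start of Hoxd11 (4 each) lie under the dashed line, as do Hoxd4 (4) and Hoxd8 (6).

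Forkhead factors bind sites with a core such as TGTTTAC, also TGTTTGC, or the variant TATTTAC. On either strand, none of these words was found in the 10 promoters of the 8 posterior genes. The words occur in 3.65%, 5.07% and 3.04% of all promoters of that length, and at least 1 of them in 11.2%. Among the 10 starts of the other Hoxa and Hoxd genes in the table, that of Hoxa2 held TGTTTGC and TATTTAC and that of Hoxd1 held TATTTAC. This describes windows of 300 bases and says nothing of sites elsewhere in the clusters.

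POL2 lay mainly on the Hoxa13 side of the Hoxa window and across most of the Hoxd window at both stages. POL2 reached neither end of either window. On the Hoxa13 side it left free the outermost 24.2 kb at PD12 and 19.6 kb in the adult. In Hoxd it left free 14.2 and 22.2 kb on the Hoxd13 side, and 27.6 and 32.0 kb on the Hoxd1 side. In the Hoxa window it covered 41.6 kb at PD12 (29.7% of the window) and 55.6 kb in the adult (39.7%). In the Hoxd window it covered 84.4 kb at PD12 (64.9%) and 72.8 kb in the adult (56.0%). The adult thus had 1.34 times the PD12 coverage in Hoxa and 0.863 times in Hoxd, and over the whole lists that ratio was 1.35. The Hoxa ratio was near that of the whole lists, whereas the Hoxd window was less covered in the adult.

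**Figure D2:**
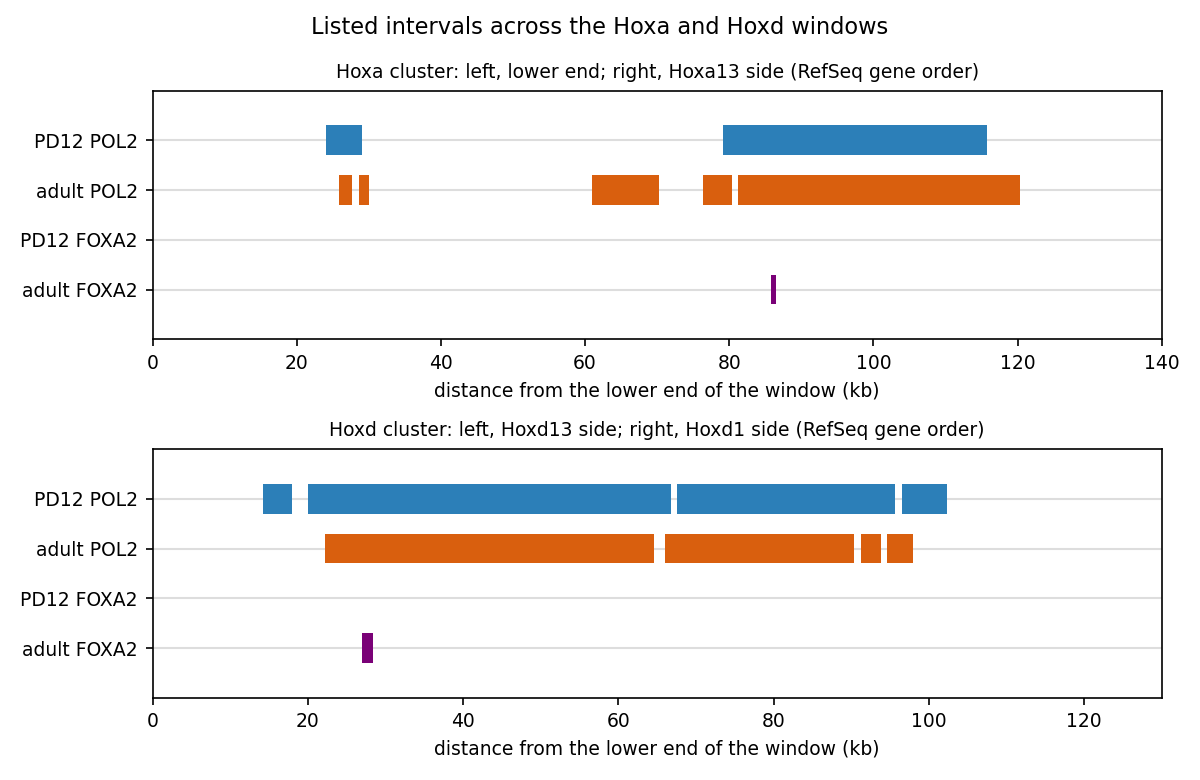
Every listed interval of the 4 libraries drawn to scale along the Hoxa (upper) and Hoxd (lower) windows, with distance from the lower end of the window in kb on the horizontal axis and 1 row per library. POL2 domains gather on the Hoxa13 side of the Hoxa window and span most of the Hoxd window, each window has 1 adult FOXA2 interval, and the PD12 FOXA2 rows are empty.

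The Hoxa window had 2 POL2 domains at PD12. The narrower one, at 52114000 to 52118999 (5 kb), lay towards the lower end of the window. The wider one, at 52169200 to 52205799 (36.6 kb), lay on the Hoxa13 side and ranked 56th by width among the 9972 PD12 domains. Between them 50.2 kb was free of PD12 domains.

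In the adult the Hoxa window had 5 domains. The widest, at 52171200 to 52210399 (39.2 kb), again lay on the Hoxa13 side and ranked 56th by width among 14818. Next to it stood a domain of 4.00 kb at 52166400 to 52170399, and 2 short ones, at 52115800 to 52117599 (1.80 kb) and 52118600 to 52119999 (1.40 kb), lay where PD12 had its narrow domain. The domain at 52151000 to 52160199 (9.20 kb) met no PD12 domain and was the only one of the 5 without a PD12 partner. It lay near the middle of the window, 61.0 to 70.2 kb from its lower end.

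Read along the Hoxa window in bins of 10 kb, the lists of both stages were dense in the same part. In the 14 bins, PD12 domains were absent from 8 and adult domains from 6. The 3 bins between 80 and 110 kb from the lower end were covered to 100% at PD12 and to 92.0%, 100% and 100% in the adult. The next bin, towards Hoxa13, was covered to 58.0% at PD12 and 100% in the adult. The stretch from 52120000 to 52150999 (31.0 kb), below the middle, was free of POL2 domains at both stages. The part of the window above its midpoint held 88.0% of the PD12 coverage and 78.1% of the adult coverage, and the part below it 5 kb at PD12 and 12.2 kb in the adult.

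The added adult coverage in the Hoxa window came in a few blocks. Of the covered bases, 38.0 kb were covered at both stages, 3.60 kb at PD12 alone and 17.6 kb in the adult alone. The adult-alone bases were the separate domain of 9.20 kb, 4.60 kb beyond the PD12 domain on the Hoxa13 side (52205800 to 52210399), 2.80 kb beyond it on the other side (52166400 to 52169199) and 1.00 kb beside the narrow domain. Taken with the domain of 4.00 kb beside it, across a gap of 0.800 kb, the wide adult block reached further than the PD12 domain at both ends. The wide adult domain alone began inside the PD12 domain.

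The Hoxd window had 4 POL2 domains at each stage. At PD12 they lay at 74504200 to 74507999 (3.80 kb), 74510000 to 74556799 (46.8 kb), 74557600 to 74585599 (28 kb) and 74586600 to 74592399 (5.80 kb). The domain of 46.8 kb ranked 31st by width among all PD12 domains and that of 28 kb 133rd. The gaps between the 4 measured 2.00, 0.800 and 1.00 kb, so that PD12 coverage ran almost unbroken over 88.2 kb.

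The adult domains of the Hoxd window lay at 74512200 to 74554599 (42.4 kb), 74556000 to 74580399 (24.4 kb), 74581200 to 74583799 (2.60 kb) and 74584600 to 74587999 (3.40 kb). The first ranked 43rd and the second 258th by width among adult domains. Coverage ran over 75.8 kb with gaps of 1.40, 0.800 and 0.800 kb. The first PD12 domain, on the Hoxd13 side, had no adult partner, and all 4 adult domains met a PD12 domain.

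In the Hoxd window 71.0 kb was covered at both stages, 13.4 kb at PD12 alone and 1.80 kb in the adult alone. Of the PD12 bases 84.1% were also covered in the adult, and of the adult bases 97.5% were also covered at PD12. In the Hoxa window these shares were 91.3% and 68.3%, and over the whole lists 72.0% and 53.2%. The bases found at PD12 alone lay mainly at the 2 outer ends of the Hoxd block. They made up 3.80 and 2.20 kb on the Hoxd13 side (74504200 to 74507999 and 74510000 to 74512199) and 4.40 kb on the Hoxd1 side (74588000 to 74592399).

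**Figure D3:**
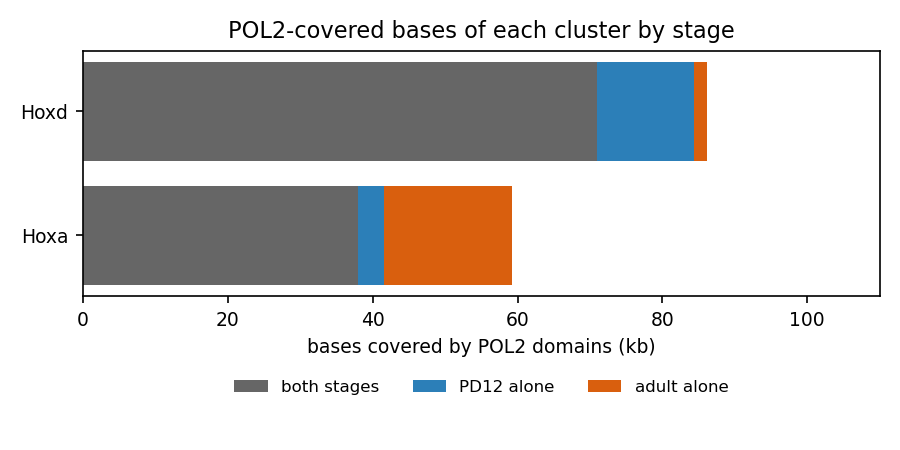
Bases covered by POL2 domains in each window (kb, horizontal axis), divided into bases covered at both stages, at PD12 alone and in the adult alone, 1 library per stage. In Hoxd the PD12-alone part (13.4 kb) exceeds the adult-alone part (1.80 kb), and in Hoxa the adult-alone part (17.6 kb) exceeds the PD12-alone part (3.60 kb).

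Counted by domain, 5 of the 6 PD12 domains in the windows met an adult domain (2 of 2 in Hoxa, 3 of 4 in Hoxd), where 79.9% of the whole PD12 list did. In the other direction 8 of the 9 adult domains met a PD12 domain (4 of 5 in Hoxa, 4 of 4 in Hoxd), against 54.4% of the adult list. Several of these 8 met the same PD12 domain, as did those of 1.80 and 1.40 kb in Hoxa, so they are not separate meetings. When 50% of both domains had to be covered, the shares were 50% at PD12 and 20% in the adult in Hoxa, and 50% at both stages in Hoxd. The whole lists were not counted under this stricter rule, so these lower shares cannot be set against them. Wide domains meet another list more often. Of PD12 domains of at least 20 kb 98.9% met an adult domain, and of adult domains of that width 92.0% met a PD12 one, as did all 3 PD12 and all 3 adult domains of that width in the windows. At this width the windows' domains are near the share of the lists.

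Joining the domains of 1 list wherever the gap was 5 kb or less turned the Hoxd block into a single stretch at each stage, 74504200 to 74592399 at PD12 (88.2 kb) and 74512200 to 74587999 in the adult (75.8 kb). By width these ranked 24th of 7607 stretches at PD12 and 58th of 10620 in the adult. The PD12 stretch reached 8 kb further on the Hoxd13 side and 4.40 kb further on the Hoxd1 side. The wide Hoxa stretch measured 36.6 kb at PD12 and 44.0 kb in the adult, where it reached 2.80 kb further at its lower end and 4.60 kb further on the Hoxa13 side. These differences are larger than the median distance between matching ends, which was 1400 bp over the 488 pairs of stretches that met 1 to 1 and measured at least 20 kb at PD12. Among these pairs 23.6% were longer at PD12 at both ends, as Hoxd was, and 19.1% were longer in the adult at both ends, as Hoxa was. The pairs were chosen by PD12 width alone, which favours pairs longer at PD12. Over all 5153 pairs the order was reversed, with 15.8% longer at PD12 and 29.3% longer in the adult at both ends. Neither pattern is rare among wide stretches. With gaps of up to 10 kb joined, a setting chosen after the data were seen, the adult Hoxa stretch took in the domain of 9.20 kb. The reach of PD12 beyond the adult at the lower end of the stretch then went from -2.80 to -18.2 kb, where a negative value means that the adult reached further.

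The coverage was set against windows of the same length laid end to end along all chromosomes. Of 20252 windows of 130 kb, 24.0% had any PD12 POL2, with a median of 9.60 kb among those that did, and 25 were covered at PD12 as much as the Hoxd window or more. In the adult 79 windows reached the 72.8 kb of Hoxd. Of 18804 windows of 140 kb, 263 reached the 41.6 kb of Hoxa at PD12 and 221 reached its 55.6 kb in the adult. Both clusters stood among the more densely covered windows of each list, and Hoxd ranked higher than Hoxa. The comparison windows could cut a covered block, whereas no listed interval crossed an edge of the Hox windows. The Hox windows were also chosen with earlier results of these data known, so the counts can favour them.

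Among windows with POL2 at PD12 and at least 30% covered at either stage, the adult had less coverage than PD12 in 23.6% of 585 windows of the Hoxd length. The median ratio of adult to PD12 coverage in these was 1.26, with quartiles of 1.01 and 1.78, and the 0.863 of Hoxd lay under the lower quartile. Of 506 such windows of the Hoxa length 24.3% had less coverage in the adult, with a median ratio of 1.27 and quartiles of 1.01 and 1.83, and the 1.34 of Hoxa lay between the quartiles. Among windows at least 50% covered at either stage, as Hoxd was, more had less coverage in the adult. Their share was 30.5% at the Hoxd length and 33.0% at the Hoxa length. With a limit of 20% the shares were 25.3% and 24.1%. These limits were also chosen after the data were seen. The difference between the clusters was not tested.

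**Figure D4:**
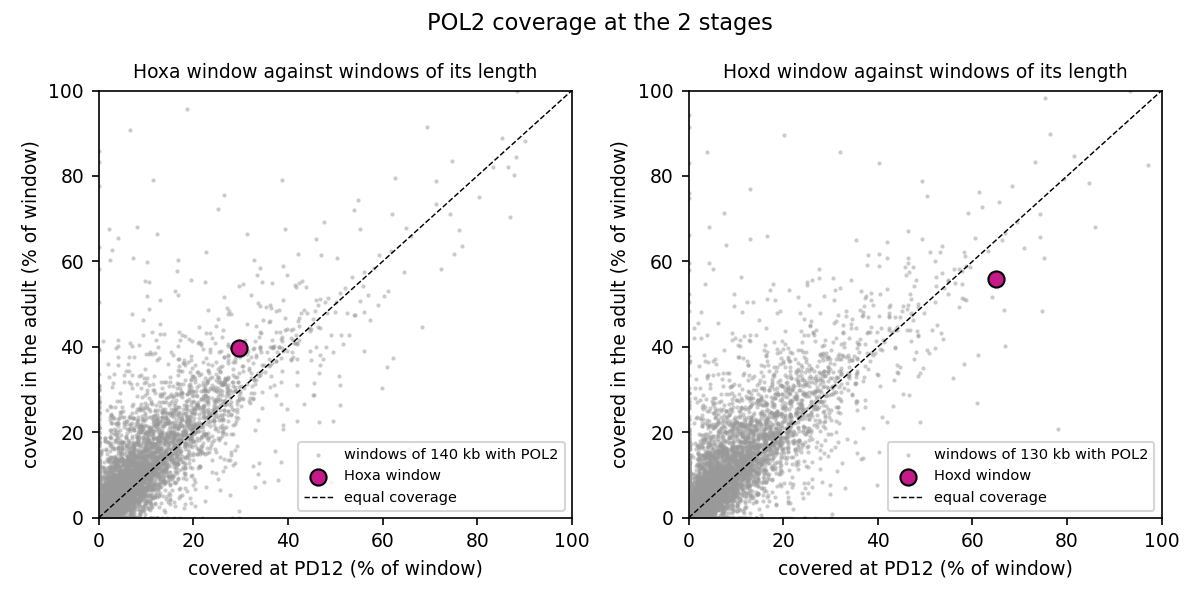
Percent of each window covered by POL2 domains at PD12 (horizontal axis) and in the adult (vertical axis), for all windows of the same length with any POL2 (grey points) and for the Hoxa (left) and Hoxd (right) windows (large points), with a dashed line at equal coverage. Hoxa (29.7% and 39.7%) lies above the line with most of the grey points, and Hoxd (64.9% and 56.0%) lies below it.

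FOXA2 was listed once in each cluster in the adult and in neither at PD12. The Hoxa interval was at chromosome 6, 52175848 to 52176463, and was 616 bp wide. The Hoxd interval was at chromosome 2, 74516975 to 74518342, and was 1368 bp wide. The median width of adult FOXA2 intervals was 685 bp. The Hoxd interval belonged to the widest 3.63% of the adult list, and the Hoxa interval was narrower than the median.

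A FOXA2 interval in a window of this size is common in the adult list and uncommon in the PD12 list. Of windows of 140 kb, 33.2% held an adult and 4.05% a PD12 interval, and of windows of 130 kb, 31.6% and 3.79% did. The empty windows at PD12 are therefore near what most of the genome shows in that short list. Over the adult list 5.65% of intervals met a PD12 FOXA2 interval, and neither of the 2 in the Hox windows did.

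Both adult FOXA2 intervals lay wholly inside the widest POL2 domain of their cluster, at PD12 as well as in the adult. Over the adult list 19.4% of FOXA2 intervals met an adult POL2 domain, 11.4% a PD12 one and 10.1% both. With 2 intervals no share can be set against these, and adult POL2 covered 39.7% and 56.0% of the 2 windows. Both intervals lay nearer to the lower edge of their domain. The distance from that edge was 4.65 kb in Hoxa and 4.78 kb in Hoxd in the adult, and 6.65 and 6.97 kb at PD12, and the upper edge was 33.9 and 36.3 kb away in the adult. These are edges of single domains. Below the edge a further domain followed across 0.800 kb in adult Hoxa and across 2.00 kb in PD12 Hoxd. Measured from the joined stretches, which began at 52166400 and 74504200, these 2 distances are longer, so the likeness between clusters depends on how the domains were split.

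In gene order the lower edge means opposite things in the clusters. In Hoxd it is the Hoxd13 side, and the FOXA2 interval lay 27.7 kb from the lower end of the window. In Hoxa it is the side away from Hoxa13, and the interval lay 86.2 kb from the lower end and 53.8 kb from the upper end. The FOXA2 intervals stood alone in their surroundings. The nearest other adult FOXA2 centre was 260 kb away for Hoxa and 545 kb away for Hoxd, where the median over the adult list was 38.0 kb, and 7.91% and 2.16% of adult intervals were as isolated or more so. The nearest PD12 FOXA2 centre was 414 and 459 kb away.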

How the data were processed

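FOXA2 and POL2 were profiled by ChIP-seq in whole mouse uterus, with 1 library per antibody and stage. Per the submitters' processing notes BWA was used. The sources used here name no peak caller, calling threshold or genome build and do not say whether input DNA entered the calls. The deposited lists, per the file headers, hold the chromosome, start and end of each interval, as positions in base pairs with no score, signal or count, so that depth and its precision are unknown. POL2 starts all lie on a grid of 200 bp with gaps of at least 800 bp, so POL2 edges are known only to that grid. Over all lists 260 intervals, 177 of them on chromosome 7, lay beyond the last GRCm38 gene, and GRCm38 positions were therefore not set against them.

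Ends were counted as inclusive. An overlap was at least 1 bp, covered bases were the union of intervals clipped to the window, and windows for comparison began at position 1 of each chromosome. The calculation was checked on 200 simulated pairs of lists and matched a base-by-base count in 200. All intervals in the windows are described and, without an annotation of the build, none is tied to a gene. The planned gene and cell type marker lists were not used. The regions and genes were chosen with earlier results of these data known, and the 20 kb and 30% limits, joined stretches and promoter counts were chosen after the data were seen. Python 3.11.15, numpy 2.4.6 and matplotlib 3.10.9 were used.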

Additional observations from a re-analysis of the deposited data

How the results depend on the processing

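For 36 values and 148 alternatives, 124 stayed within 1.5 times the reported value and 24 moved further, and no stage ratio or end difference changed direction. Part of the 124 could not move, so the tally overstates stability. Cutting the adult lists left PD12 counts and coverage as they were. No interval crossed a window edge, so counting whole intervals changed nothing. The nearest interval lay 14.2 kb inside an edge, so trimming by 10 kb could not change counts or coverage. Widening Hoxd by 50 kb could add no POL2 domain, as the nearest lay 100.0 kb outside. The gaps of the Hoxd block were 2.00 kb or less, so joining across 2 or 10 kb could not move its end differences. The adult to PD12 ratio of POL2 bases ranged from 1.26 to 1.44 in Hoxa and from 0.791 to 0.863 in Hoxd. The PD12 FOXA2 count was 0 throughout, but no setting could raise it. The nearest PD12 FOXA2 interval lay 356 kb outside a window, and windows were widened by 50 kb only. In the 50% widest intervals of each list, the Hoxa adult FOXA2 count was 0 (0 kb), and POL2 domains numbered 1 at PD12 and 2 in the adult in Hoxa and 2 in the adult in Hoxd. With adult lists cut by width to the PD12 length, the Hoxa adult FOXA2 count was 0 (0 kb), and adult POL2 domains numbered 3 in Hoxa and 2 in Hoxd. With gaps of up to 5 kb merged there were 3 adult domains in Hoxa and 1 at each stage in Hoxd. With 50% of both domains covered, the share of domains met in the other stage was 50% at PD12 (from 100%) and 20% in the adult (from 80%) in Hoxa, and 50% at both stages (from 75% and 100%) in Hoxd. With centres within 500 bp it was 50% and 20% in Hoxa and 25% at both stages in Hoxd. These shares rest on 2 to 5 domains each, and the whole lists were not counted under these rules. Bins at least 50% covered, 35.7% in Hoxa and 61.5% in Hoxd at both stages, were 20.8% and 34.8% at both stages with windows widened by 50 kb. The equal shares in Hoxa rest on 1 PD12 bin covered to exactly 50%, and with bins of 5 kb or of 20 kb they were 28.6% at PD12 and 42.9% in the adult. In Hoxd they were 65.4% and 61.5% with bins of 5 kb and 57.1% at both stages with bins of 20 kb. Joining across 10 kb, an alternative chosen after the data were seen, moved the reach of PD12 beyond the adult at the lower Hoxa end from -2.80 to -18.2 kb. A negative value means that the adult reached further. Counts that fell under the width cuts or the joining did so through the widths of the intervals and the gaps between them. Widened windows add bins. The cause of the other moves was not tested. No paired analysis was possible because there was a single library per group. Unknown depth limits every comparison of stages.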

Other observations

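The nearest POL2 domains outside the windows were also measured. Below the Hoxa window the nearest domain was 653 kb away at both stages. Above it, on the Hoxa13 side, the nearest PD12 domain was 481 kb away, whereas the adult list had a domain of 4.40 kb at chromosome 6, 52262200 to 52266599, 32.2 kb beyond the window and with no PD12 partner. For the Hoxd window, on the Hoxd13 side the nearest domains were 132 kb (PD12) and 137 kb (adult) away, and on the Hoxd1 side 102 and 100.0 kb.

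The inner gaps of the Hoxd block did not coincide. The PD12 gap at 74556800 to 74557599 was covered in the adult, and the adult gap at 74554600 to 74555999 was covered at PD12, so that the pair lay 800 bp apart. With POL2 edges on a grid of 200 bp and a smallest gap of 800 bp in either list, gaps of this size are at the resolution of the lists.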
